A study of Homo sapiens with 12 samples.

Results

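The genes described here encode the proteins of the cytosolic ribosome and their close paralogs. They were taken by symbol from the gene count tables, as RPL or RPS followed by a number with an optional A, X or L, together with RPLP0, RPLP1, RPLP2, RPSA, RPL36AL, RPL7L1 and RPL22L1. The rule found 84 of the 44700 genes listed, 52 of the large subunit and 32 of the small one, and used no measured value. Of these, 82 passed the filter on low counts. RPL10L and RPL3L did not, with 1 and 4 counts in all 12 libraries.

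Total RNA was sequenced from SK-MEL-5 and MALME-3M, established human melanoma lines labelled wild type, each untreated or exposed to interferon gamma (IFN-γ) for 24 h. The 4 groups held 3 libraries each. SK-MEL-5 received 150 ng/mL in Eagle's medium with less serum, and MALME-3M 200 ng/mL in Iscove's medium with more, so line, dose and medium cannot be told apart in any comparison between the lines. Replicates came from wells of 1 line, so p-values measure only the spread between these libraries.

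Ribosomal proteins are made in near-equal numbers and assemble on ribosomal RNA into a large and a small subunit. Many of their mRNAs start with a C and a run of pyrimidines, the 5′ terminal oligopyrimidine motif, through which their translation follows growth signals. RPL5 and RPL11, which carry the 5S ribosomal RNA, also bind MDM2 when assembly is disturbed, and RPL13A is known from IFN-γ-treated monocytic cells as a protein that leaves the ribosome and represses chosen mRNAs. None of these protein-level events is read by the mRNA counts used here.

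The start of the mRNA is what most members share in sequence, so it is shown for the members that the comparisons below turn on and for 3 pairs of paralogs. Each line gives 40 bases before the annotated start and 20 from it, 5′ to 3′ on the transcribed strand, from RefSeq promoters on GRCh38.p14. Capitals mark a C at the start followed by at least 4 bases that are each C or T. Where a member had several annotated starts, a start with such a run was chosen for display over the others.
RPL6, chr12:112409266-112409325 (minus strand): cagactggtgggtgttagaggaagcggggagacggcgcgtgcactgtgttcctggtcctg
RPS23, chr5:82278335-82278394 (minus strand): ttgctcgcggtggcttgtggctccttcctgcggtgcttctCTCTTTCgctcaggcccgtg
RPL12, chr9:127451387-127451446 (minus strand): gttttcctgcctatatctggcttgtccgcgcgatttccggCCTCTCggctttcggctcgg
RPL13A, chr19:49487568-49487627 (plus strand): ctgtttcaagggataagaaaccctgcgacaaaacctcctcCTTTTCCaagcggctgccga
RPL41, chr12:56116593-56116652 (plus strand): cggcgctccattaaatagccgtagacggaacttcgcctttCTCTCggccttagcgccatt
RPS14, chr5:150449720-150449779 (minus strand): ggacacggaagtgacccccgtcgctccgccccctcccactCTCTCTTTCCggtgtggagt
RPL38, chr17:74203638-74203697 (plus strand): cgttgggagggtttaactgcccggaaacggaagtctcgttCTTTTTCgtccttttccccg
RPL9, chr4:39458903-39458962 (minus strand): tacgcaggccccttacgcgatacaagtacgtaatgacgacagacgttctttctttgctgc
RPS27, chr1:153990722-153990781 (plus strand): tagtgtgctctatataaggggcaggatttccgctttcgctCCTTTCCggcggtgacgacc
RPS27L, chr15:63157458-63157517 (minus strand): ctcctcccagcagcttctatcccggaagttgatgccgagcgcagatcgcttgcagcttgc
RPL22, chr1:6199576-6199635 (minus strand): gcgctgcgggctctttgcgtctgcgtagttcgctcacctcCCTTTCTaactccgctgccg
RPL22L1, chr3:170870176-170870235 (minus strand): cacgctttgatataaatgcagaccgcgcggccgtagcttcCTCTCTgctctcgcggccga
RPL36A, chrX:101390971-101391030 (plus strand): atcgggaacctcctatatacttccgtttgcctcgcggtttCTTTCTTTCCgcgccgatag
RPL36AL, chr14:49620607-49620666 (minus strand): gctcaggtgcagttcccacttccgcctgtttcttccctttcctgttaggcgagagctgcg

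The run stood at an annotated start of 47 of the 67 members with an entry (70.1%), against 5.14% of the 27305 genes of the same table. Searched on the transcribed strand within 10 bases of the start, it was found in 59 of the 67 (88.1%) and in 38.4% of all genes. RPL22 and its paralog RPL22L1 both carried it at the start, whereas RPS27L and RPL36AL had none at the start and their partners did. In the windows shown, RPL36AL had such a run beginning within the 10 bases before its start, and RPS27L had none within 10 bases. A match describes these letters only. Members with and without the run at the start had median log2 fold changes under IFN-γ of -0.03 (47 members) and -0.14 (19) in SK-MEL-5 and of -0.11 and -0.12 in MALME-3M.

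The members together took a smaller share of the gene counts after IFN-γ in both lines. In SK-MEL-5 they held 3.14%, 3.10% and 3.02% of the counts of the untreated libraries and 2.91%, 2.97% and 2.85% of the treated ones. In MALME-3M the untreated libraries had 2.54%, 2.47% and 2.48%, and the treated ones 2.28%, 2.26% and 2.23%. Every treated library lay below every untreated library of its line, and every MALME-3M library below every SK-MEL-5 library. The mean share went from 3.08% ± 0.0601 (SD, n = 3) to 2.91% ± 0.0622 in SK-MEL-5 and from 2.50% ± 0.0374 to 2.26% ± 0.0257 in MALME-3M. With 3 libraries against 3, an exact two-sided permutation test cannot go below the p = 0.1 it gave for each of these differences. The shares of the transcript estimates kept the order, at 4.20% and 4.02% in SK-MEL-5 and 3.48% and 3.20% in MALME-3M.

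**Figure D1:**
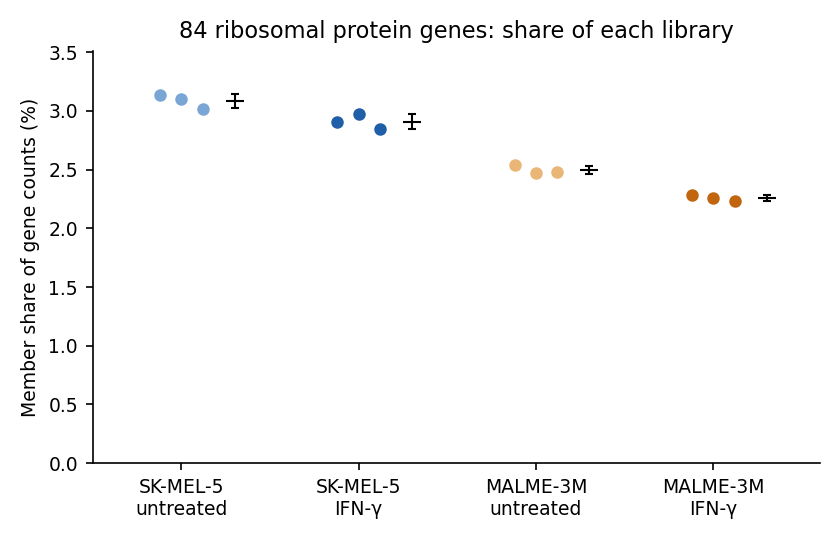
Share of the gene counts (%) held by the 84 ribosomal protein genes in each of the 12 libraries (points), with the mean and SD of each group (bar). Treated and untreated libraries do not overlap within either line, from 3.14% in the highest SK-MEL-5 untreated library to 2.23% in the lowest MALME-3M treated one.

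In SK-MEL-5, IFN-γ lowered 18 members and raised 3, all by less than 2-fold. Of all 15810 genes, edgeR's quasi-likelihood test (Benjamini-Hochberg adjusted p under 0.05) called 7.05% lower and 5.98% higher, so 18 of 82 is above the background for lower calls, and 3 of 82 is below that for higher ones. Genes with many counts are called more readily. Among the 2431 genes with a mean of at least 100 CPM (counts per 1000000, on each library's effective size), 17.4% were lower and 8.31% higher, against 17 and 2 of the 66 members at that level. The median log2 fold change over the 82 members was -0.05, beside -0.03 over all genes. At a mean of at least 100 CPM it was -0.058 over the 66 members and -0.049 over all genes, so most of this shift was shared by genes at that level. Without the IFN-γ library 3 the counts were 7 lower and 0 higher, and without the untreated library 2 they were 8 and 0. The transcript estimates called 1 member lower, where 1.30% of all genes were called lower.

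RPL6, a large-subunit protein at 12:112405190-112418838 by GENCODE 29 on GRCh38, fell most among those lowered in SK-MEL-5. It had 751, 725 and 678 CPM in the untreated libraries and 612, 601 and 564 CPM in the treated ones. The groups did not overlap, and the log2 fold change was -0.28 (SE 0.0477, edgeR adjusted p = 0.000452). RPS23, which lies at the decoding centre of the small subunit, had 389, 389 and 362 CPM untreated and 329, 320 and 299 CPM treated. It fell by 0.26 on the log2 scale (SE 0.0489, edgeR adjusted p = 0.000899), with no overlap. RPL24, which forms a bridge between the subunits, fell from 340, 368 and 338 CPM to 308, 299 and 263 CPM, a log2 fold change of -0.27 (SE 0.0593, edgeR adjusted p = 0.00463). RPL7 (-0.27), RPS3A (-0.24), RPL5 (-0.23) and RPL23 (-0.21) also fell, and these 7 genes stayed called without each library in turn and under every other setting based on gene counts. From the transcript estimates none of the 7 was called, with log2 fold changes of -0.16 for RPL6, -0.14 for RPS23, -0.18 for RPL24, -0.11 for RPL7, -0.17 for RPS3A and -0.05 for RPL23. RPL5 had -0.25 there, as large as by gene counts, with a larger SE (0.108).

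The 3 members raised in SK-MEL-5 were RPL17, RPL41 and RPL13A. RPL41, the shortest ribosomal protein, had 172, 161 and 193 CPM untreated and 193, 243 and 267 CPM treated. The lowest treated library equalled the highest untreated one to 3 digits, and the log2 fold change was 0.42 (SE 0.104, edgeR adjusted p = 0.0104). RPL13A, at 19:49487554-49492308, had 138, 111 and 124 CPM untreated and 144, 168 and 179 CPM treated, with a log2 fold change of 0.40 (SE 0.0949, edgeR adjusted p = 0.00756). RPL17, which overlaps an annotated readthrough gene, had 25.5, 15.9 and 21.8 CPM untreated and 23.2, 30.6 and 33.8 CPM treated, and these overlapped. Its log2 fold change was 0.48 (SE 0.145, edgeR adjusted p = 0.0362). None of the 3 calls held without the untreated library 2 or without the IFN-γ library 3. In the transcript estimates the log2 fold changes were 0.35 for RPL41, 0.02 for RPL13A and -0.07 for RPL17, and none was called.

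In the treated libraries of both lines RPL13A had the same order as the alignments that the counting set aside as not unique, taken per gene count. In the treated SK-MEL-5 libraries these were 9.36, 10.5 and 12.2 times the gene counts where RPL13A had 144, 168 and 179 CPM. In the treated MALME-3M libraries they were 13.7, 10.99 and 9.38 times where RPL13A had 162, 140 and 121 CPM. The untreated SK-MEL-5 libraries had the same order (11.96, 7.47 and 9.46 times with 138, 111 and 124 CPM), and the untreated MALME-3M libraries did not (9.89, 12.3 and 12.1 times with 152, 151 and 148 CPM). RPL17, RPL41 and RPS14 followed the same order in the treated libraries of both lines. In the untreated SK-MEL-5 libraries RPL17 did and RPL41 and RPS14 did not. In untreated MALME-3M all 3 were highest in the library with the lowest ratio. The ratio has the gene counts of the library as its divisor. It ran opposite to them in the treated libraries of both lines and in untreated SK-MEL-5, and not in untreated MALME-3M. Neither the part of multiply aligned reads nor that of depth in these results was tested.

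In MALME-3M, 24 members fell and 1 rose, again all by less than 2-fold. Over all genes 8.77% were called lower and 9.51% higher by edgeR, and among genes with a mean of at least 100 CPM the shares were 22.4% and 12.7%, against 24 and 1 of the 66 members at that level. The median log2 fold change was -0.11 over the 82 members and 0.00 over all genes. At a mean of at least 100 CPM it was -0.114 over the 66 members and -0.048 over all genes. In 35 members every treated library was below every untreated one, a pattern shown by 16.5% of all genes. In SK-MEL-5 this held for 26 members, beside 17.4% of all genes. Leaving out 1 library at a time gave 16 to 29 members lower in MALME-3M, and the transcript estimates gave 14, where 3.07% of all genes were called lower.

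RPL23, a large-subunit protein that can bind MDM2, had 635, 600 and 636 CPM in untreated MALME-3M and 494, 507 and 510 CPM after IFN-γ. It fell by 0.31 on the log2 scale (SE 0.0434, edgeR adjusted p = 4.05e-05) without overlap. RPL7 fell from 322, 276 and 278 CPM to 238, 228 and 226 CPM, a log2 fold change of -0.34 (SE 0.0592, edgeR adjusted p = 0.000405). RPL22L1, the paralog of RPL22, fell from 99.4, 101 and 94.5 CPM to 78.0, 83.5 and 74.97 CPM, by 0.32 (SE 0.0748, edgeR adjusted p = 0.00531). All 3 separated the treated from the untreated libraries. Together with RPL6 (-0.28), RPL12 (-0.16), RPL35 (-0.20), RPS3A (-0.24), RPS4X (-0.20), RPS6 (-0.23), RPS23 (-0.23) and RPS24 (-0.24), they were called lower under all 19 alternatives, the transcript estimates included. RPS6, the target of the S6 kinases, had 743, 691 and 687 CPM untreated and 606, 602 and 601 CPM treated.

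The log2 fold change of RPS14, which sits on the platform of the small subunit, was the lowest in MALME-3M. It went from 287, 236 and 231 CPM to 213, 200 and 172 CPM, a log2 fold change of -0.37 (SE 0.101, edgeR adjusted p = 0.0146). The adjusted p was 0.105 without the untreated library 1 (log2 fold change -0.26) and 0.0696 without the IFN-γ library 3 (-0.30), and the transcript estimates gave 0.12. The 1 member raised was RPS9, with 127, 130 and 122 CPM untreated and 137, 144 and 145 CPM treated. Its log2 fold change was 0.17 (SE 0.0529, edgeR adjusted p = 0.034), and the call was lost without the untreated library 1 (0.17) or 3 (0.14) and without the IFN-γ library 2 (0.16) or 3 (0.13).

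Members lowered in both lines numbered 11, which is 61.1% of those lowered in SK-MEL-5 and 45.8% of those lowered in MALME-3M. Over all genes 3.04% were lowered in both lines, and 9.46% of those with a mean of at least 100 CPM, where all 11 members lie (of 66). Of the other tested genes 469 were lowered in both, which is 42.8% of those lowered in SK-MEL-5 and 34.4% of those lowered in MALME-3M. The 11 members were RPL3, RPL4, RPL5, RPL6, RPL7, RPL14, RPL23, RPS3A, RPS4X, RPS6 and RPS23. Across the 82 members the changes in the lines, which share no library, had a Pearson r of 0.389 and a Spearman rho of 0.472, and over the 15728 other genes 0.444 and 0.318. Large-subunit members were 12 of the 18 lowered in SK-MEL-5 and 16 of the 24 in MALME-3M, of 50 tested. Small-subunit members were the other 6 and 8, of 32 tested. The change was also set against base composition over the 82 members. In SK-MEL-5 the GC content of the transcript gave r = 0.304 and rho = 0.383, beside 0.009 and 0.054 over 12409 other genes. In MALME-3M it gave r = 0.282 and rho = 0.302, beside 0.077 and 0.200. Members share libraries and many features, so these values are descriptions, and the part of base composition was not tested.

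**Figure D2:**
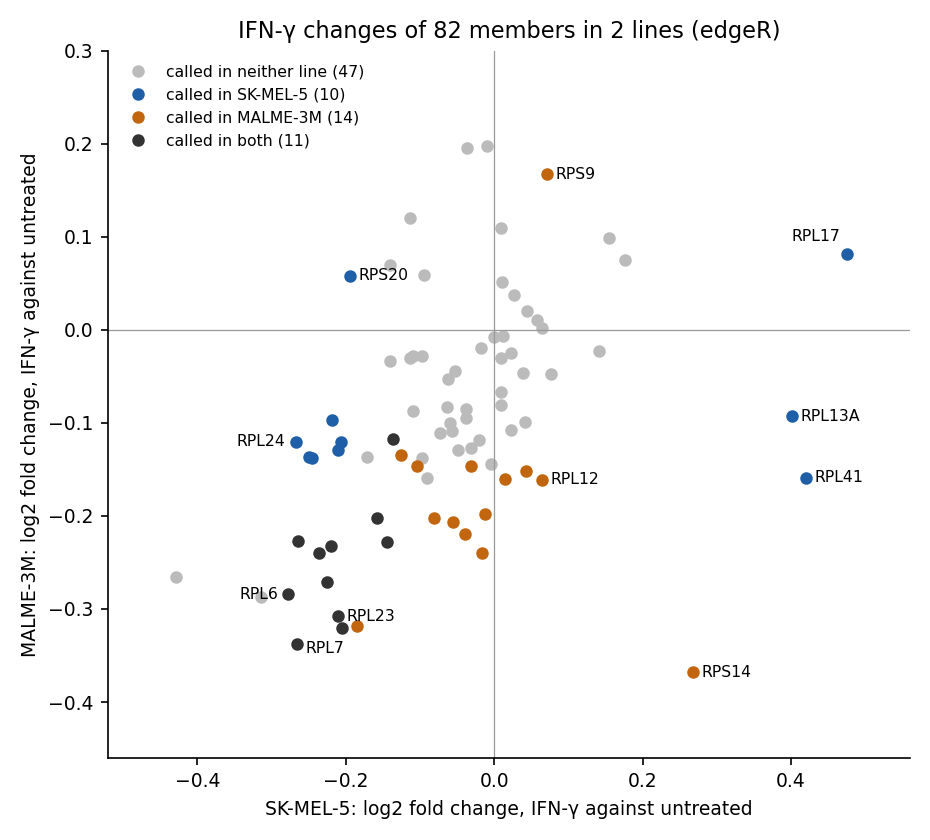
Log2 fold change of each of the 82 tested members after IFN-γ in SK-MEL-5 (horizontal axis) and MALME-3M (vertical axis), coloured by whether edgeR called it in each line. The 11 members called in both lines lie in the lower left, and RPL13A, RPL41 and RPS14 lie to the right with opposite signs in the lines.

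Of the pair that carries the 5S ribosomal RNA, RPL5 fell in both lines, from 1008, 1068 and 996 CPM to 901, 893 and 834 CPM in SK-MEL-5 and from 699, 649 and 687 CPM to 577, 574 and 537 CPM in MALME-3M (edgeR adjusted p = 0.00274 and 0.000375). RPL11 was not called, with log2 fold changes of -0.04 in SK-MEL-5 and -0.09 in MALME-3M, and whether the pair differed was not tested. The P stalk, which binds elongation factors, had 0 called members in either line by edgeR. Unadjusted, 1 member had p under 0.05 in MALME-3M and 0 in SK-MEL-5, and DESeq2 called the same numbers. RPLP0, RPLP1 and RPLP2 had log2 fold changes of -0.10, -0.06 and -0.03 in SK-MEL-5 and -0.03, -0.05 and -0.13 in MALME-3M. RPS19, the gene most often mutated in Diamond-Blackfan anaemia, had 0.01 and -0.01, RPSA, also known as a laminin receptor, -0.05 and -0.04, and RPS27A, made as a fusion with ubiquitin, 0.02 and -0.11. RPL10A was not called either (-0.11 and -0.09), and RPS3 was called lower in MALME-3M (-0.15) and not in SK-MEL-5 (-0.03). The MALME-3M call held only without the SK-MEL-5 untreated library 1 or the MALME-3M IFN-γ library 1 (adjusted p up to 0.151 without any other).

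The change under IFN-γ differed between the lines for 4 members by the edgeR interaction term. All 4 were lower in MALME-3M relative to SK-MEL-5, beside 1.79% of all genes, and 0 were higher (2.67% of all genes), where 3 had an unadjusted p under 0.05 and DESeq2 called 0. All 4 are among the 66 members with a mean of at least 100 CPM, and of all genes at that level 3.54% were lower and 5.14% higher. The differences of the log2 fold changes were -0.64 for RPS14 (SE 0.142, edgeR adjusted p = 0.0127), -0.58 for RPL41 (SE 0.147, 0.0292), -0.49 for RPL13A (SE 0.134, 0.0416) and -0.23 for RPL12 (SE 0.0549, 0.0229). RPL12, at the base of the P stalk, had 644, 644 and 647 CPM untreated and 663, 691 and 668 CPM treated in SK-MEL-5, a log2 fold change of 0.06 that was not called. In MALME-3M it went from 549, 543 and 550 CPM to 503, 489 and 477 CPM, and it fell by 0.16 (SE 0.0388, edgeR adjusted p = 0.00637). RPL12 was the only one of the 4 that the transcript estimates also called, at -0.30 (edgeR adjusted p = 0.0212). RPS14 had the opposite sign there (0.11).

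The count of 4 depended on single libraries. It was 1 without the SK-MEL-5 untreated library 2, the SK-MEL-5 IFN-γ library 2 or 3, or the MALME-3M IFN-γ library 2. It was 2 without any 1 of the untreated MALME-3M libraries, and 8 without the MALME-3M IFN-γ library 1.

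**Figure D3:**
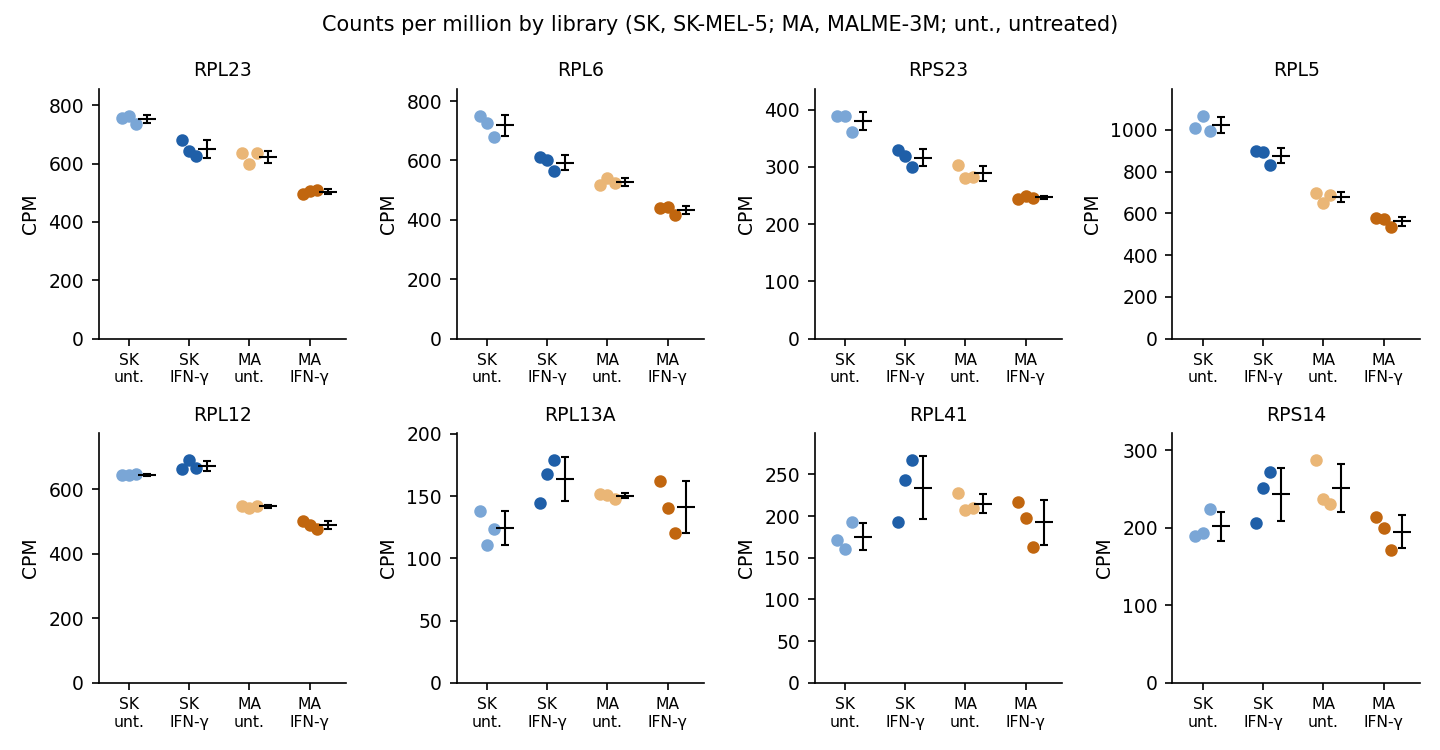
CPM of 8 members in each library (points) with group mean and SD (bars). RPL23, RPL6, RPS23 and RPL5 are lower in the treated libraries of both lines, whereas the means of RPL13A, RPL41 and RPS14 are higher in treated SK-MEL-5 and lower in treated MALME-3M, where edgeR called RPL13A and RPL41 in SK-MEL-5 alone and RPS14 in MALME-3M alone.

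Between the untreated lines the members differed far more than under IFN-γ. In MALME-3M 55 members were lower and 14 higher than in SK-MEL-5, by edgeR, beside 37.2% and 34.5% of all genes. Of the 66 members with a mean of at least 100 CPM 48 were lower and 8 higher, beside 48.7% and 33.5% of all genes at that level. The median log2 difference was -0.30 over the members and -0.02 over all genes. At a mean of at least 100 CPM it was -0.309 over the members and -0.105 over all genes. Among the treated libraries 55 members were lower and 9 higher (36.4% and 35.4% of all genes), with a median of -0.33 beside 0.00. At a mean of at least 100 CPM these medians were -0.334 and -0.118. Of the lower members 51 were called in both comparisons, and of the higher ones 9. Both comparisons rest on the same lines, grown in different media.

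RPL38, which in mice is needed to translate a set of Hox mRNAs, differed most downwards. It had 817, 795 and 818 CPM in untreated SK-MEL-5 and 317, 294 and 298 CPM in untreated MALME-3M, a log2 difference of -1.42 (SE 0.05, edgeR adjusted p = 5.58e-15). RPS3, a small-subunit protein at the mRNA entry site, had 753, 685 and 684 CPM against 323, 315 and 311 CPM, a log2 difference of -1.16 (SE 0.0501, edgeR adjusted p = 1.2e-13). RPL9 had 193, 200 and 184 CPM against 86.2, 77.4 and 82.1 CPM, a log2 difference of -1.23 (SE 0.0536, edgeR adjusted p = 1.4e-13). No library of one line overlapped the other for these genes. RPL7 (-1.38), RPS20 (-1.26), RPLP2 (-1.14), RPL8 (-1.13) and RPS16 (-1.05) completed the 8 lowest. The transcript estimates gave the same sign for all 8, from -0.87 for RPL9 to -1.44 for RPL38.

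RPLP2 had the largest difference in the P stalk, with 1163, 1210 and 1164 CPM in untreated SK-MEL-5 and 568, 534 and 504 CPM in untreated MALME-3M, whereas the log2 differences of RPLP0 and RPLP1 were -0.21 and -0.18. Whether the 3 differed from each other was not tested. RPL5 and RPL11 were both lower in MALME-3M, by 0.59 and 0.48 on the log2 scale (edgeR adjusted p = 1.31e-09 and 3.91e-08).

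The members higher in untreated MALME-3M were led by RPS15A, which had 5.09, 4.19 and 5.53 CPM in SK-MEL-5 and 12.5, 11.6 and 12.5 CPM in MALME-3M. The log2 difference was 1.31 (SE 0.142, edgeR adjusted p = 1.14e-07), and 1.01 in the transcript estimates. RPS2 had 478, 445 and 449 CPM against 697, 703 and 692 CPM, a log2 difference of 0.61 (SE 0.0418, edgeR adjusted p = 1.39e-10). RPL10, which joins the large subunit late in its assembly, differed by 0.34. RPS14 was higher by gene counts (0.32) and lower by transcript estimates (-0.63, edgeR adjusted p = 0.000365), so its direction between the lines depends on the table. Its transcript estimates summed to only 0.127 times its gene counts.

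The difference between the lines ran with the place of a member in the genome. For each member the median log2 difference was taken over the other tested genes within 2 Mb, leaving out members. Over the 82 members this neighbour median and the member's own difference had r = 0.674 and rho = 0.639. For the IFN-γ changes the same measure gave r = 0.146 in SK-MEL-5 and 0.022 in MALME-3M. Neighbouring members share neighbours, so the points are not independent. The 4 members on chromosome 8 were all lower in MALME-3M, from -0.81 for RPL30 to -1.38 for RPL7, where the 465 other genes tested had a median of -0.53. The 5 on chromosome 11 had a median of -1.02 beside -0.45 over 717 genes. The median of the members lay below that of the other genes on both chromosomes (-1.20 on chromosome 8). Elsewhere too the members and the other genes had medians that lay apart, chromosomes 3, 16 and 18 among them. The 9 on chromosome 3 had a median of -0.56 beside -0.04 over 747 genes, and the 3 on chromosome 16 had 0.61 beside -0.05 over 564. RPL17, the 1 on chromosome 18, had 0.49 beside -0.05 over 193. The sign of RPL17 depends on the table, since the transcript estimates gave -0.081, not called, and summed to 13.7 times its gene counts.

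Single members show the range. RPL38 had -1.42 where its 47 neighbours had a median of -0.66, RPLP2 -1.14 where 48 neighbours had -0.92, and RPS2 0.61 where 111 neighbours had 0.63. RPL9 went further than its region, with -1.23 beside a median of -0.19 over 20 neighbours, and so did RPS16, with -1.05 beside -0.20 over 71. RPS13 had -0.39 where 18 neighbours had -1.16. This difference was not called (edgeR adjusted p = 0.0876), and the transcript estimates gave -0.63 (edgeR adjusted p = 2.94e-05). DNA copy number was not measured in these libraries, and its part was not tested.

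**Figure D4:**
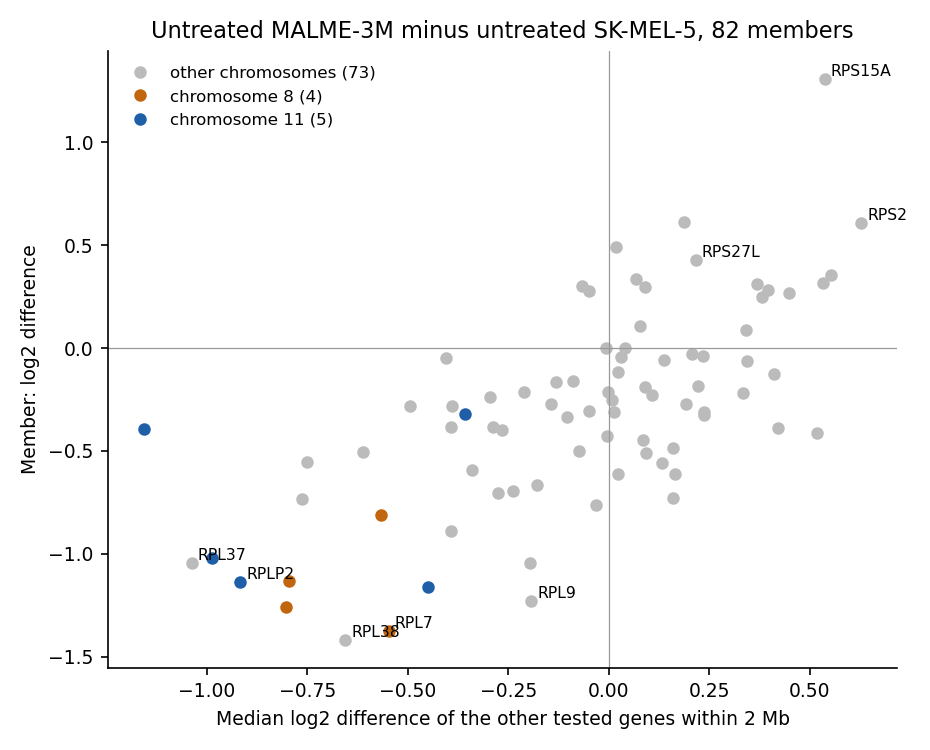
Log2 difference of each of the 82 members between the untreated lines (vertical axis, MALME-3M minus SK-MEL-5) against the median of the other tested genes within 2 Mb (horizontal axis). The points rise together (r = 0.674), members on chromosomes 8 and 11 lie low on both axes, and RPL9 lies low with a neighbour median near 0.

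The number of reads credited to a member depended on the table. For 53 of the 82 members the transcript estimates summed to between 0.5 and 2 times the gene counts. For 21 they were under 0.5 times, the lowest being RPS25 (0.0529), RPLP1 (0.0932), RPLP2 (0.119) and RPS14 (0.127). For 8 they were over 3 times. Among these were RPL26 (85.7), RPL36A (39.3), RPS10 (34.2), RPS15A (20.3), RPL17 (13.7), RPS13 (10.1) and RPL13A (5.53), the groups of members having been set after the ratios were seen. RPL36A, RPL17 and RPS10 overlap annotated readthrough genes. Ribosomal protein genes are known for many near-identical processed copies, whose part in the mismatch was not tested. The gene counts of these 8 are uncertain as levels.

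**Figure D5:**
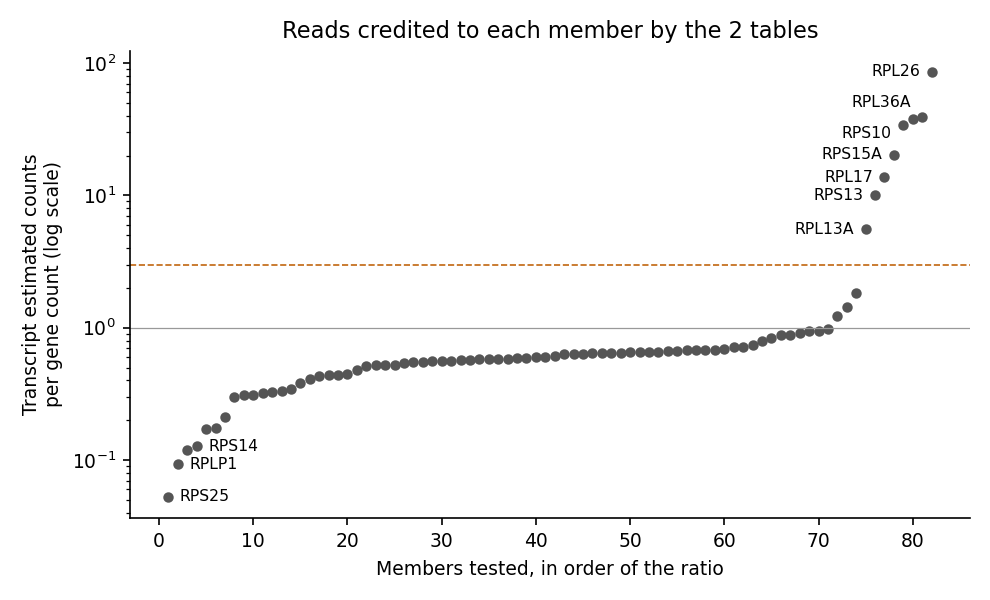
Transcript estimated counts per gene count, summed over the 12 libraries, for the 82 tested members in order of the ratio (log scale). The solid line marks 1 and the dashed line 3, above which lie 8 members, from RPL13A (5.53) to RPL26 (85.7).

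Per length, in TPM (transcripts per 1000000), RPL19, RPL13A and RPL26 had the highest medians over the 12 libraries, at 1559, 1074 and 982 TPM. RPL41 followed with 941 TPM. RPL10L and RPL3L, paralogs with known expression in testis and striated muscle, had 0 and 0.0451 TPM. RPS25 was the lowest of the tested members with 5.52 TPM, but its gene count was high (115, 107 and 113 CPM in untreated SK-MEL-5), and its transcript estimates summed to 0.0529 times its gene counts, so its TPM is not comparable with the others. Among the 53 members on which the tables came within the stated range, the order ran from RPL19 (1308 to 2058 TPM) and RPL41 (763 to 1110 TPM) down to RPL35A, RPS26 and RPL7L1. RPL7L1 was at 12.9 to 23.2 TPM, apart from RPS26 at 70.0 to 114 TPM, whereas RPS26 and RPL35A (54.8 to 127 TPM) overlapped. RPL41 also overlapped the next in order, RPL35 (461 to 1119 TPM).

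The paralogs that were expressed had fewer TPM than their partners, by a margin that depended on the table. In untreated SK-MEL-5 RPL22L1 had 46.04 ± 1.44 TPM (SD, n = 3) per 100 TPM of RPL22, RPL36AL 18.4 ± 0.557 per 100 of RPL36A, RPS27L 6.53 ± 0.663 per 100 of RPS27, RPL39L 5.38 ± 1.21 per 100 of RPL39 and RPL7L1 2.76 ± 0.226 per 100 of RPL7. In untreated MALME-3M the same ratios were 27.9 ± 2.98, 25.2 ± 1.00, 12.7 ± 1.40, 7.15 ± 0.796 and 5.08 ± 0.55. The share of RPL22L1 was lower in MALME-3M, and those of RPL36AL, RPS27L and RPL7L1 higher, with no overlap between the lines in these libraries. For RPL39L the libraries overlapped (4.48 to 6.75 and 6.34 to 7.93). By gene counts, not taken per length, RPL22L1 had 79.2 per 100 of RPL22 in untreated SK-MEL-5. There RPS27L had 43.9, RPL39L 30.9 and RPL7L1 13.1 per 100 of their partners. RPL36AL exceeded RPL36A, with 11237 against 459 gene counts in untreated SK-MEL-5, so the order of this pair depends on the table.

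Under IFN-γ only RPL22L1 in MALME-3M was called among the 5 paralogs tested. RPL7L1, RPL36AL, RPL39L and RPS27L had log2 fold changes of -0.14, -0.09, 0.01 and -0.09 in SK-MEL-5 and of 0.07, 0.06, 0.11 and -0.16 in MALME-3M. RPL22 itself fell in MALME-3M, from 179, 183 and 165 CPM to 148, 159 and 149 CPM (log2 fold change -0.21, SE 0.0536, edgeR adjusted p = 0.0107), and without the untreated library 2 the adjusted p was 0.0641 (-0.18). Between the untreated lines RPL39L (0.61), RPS27L (0.43), a p53 target, and RPL36AL (0.35) were higher in MALME-3M, and RPL22L1 (-0.73) and RPL7L1 (-0.61) lower, all with an edgeR adjusted p of at most 0.00034. RPL39L and RPL7L1 were not called in the transcript estimates (0.25 and -0.33).

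FAU and RACK1, which encode ribosomal proteins under other symbols, were not called in either line under IFN-γ by edgeR or DESeq2, and 0 had an unadjusted p under 0.05. Their log2 fold changes were -0.03 and -0.07 in SK-MEL-5 and -0.05 and -0.11 in MALME-3M. Among 73 mitochondrial ribosomal proteins, 7 fell and 0 rose in SK-MEL-5 and 14 fell and 0 rose in MALME-3M, with medians of -0.08 and -0.09. These counts and those of the next lists stand beside 7.05% lower and 5.98% higher of all genes in SK-MEL-5 and 8.77% and 9.51% in MALME-3M. Unadjusted, 1 rose in each line at p under 0.05, and DESeq2 called 0 higher. MRPL36 fell most of those called in SK-MEL-5 (-0.53, edgeR adjusted p = 0.00402), and MRPL48 in MALME-3M (-0.37, edgeR adjusted p = 0.00616). Of 32 translation factors, 2 rose and 7 fell in SK-MEL-5 and 0 rose and 7 fell in MALME-3M by edgeR, where DESeq2 called 13 lower and 11 lower, and 1 had an unadjusted p under 0.05 for a rise in MALME-3M. EIF3I, a subunit of initiation factor 3, rose in SK-MEL-5 (0.38) and fell in MALME-3M (-0.25), and the difference of -0.63 had an edgeR adjusted p of 2.02e-05. Of 38 ribosome assembly factors, 2 rose and 3 fell in SK-MEL-5 and 1 rose and 4 fell in MALME-3M. NPM1, a nucleolar chaperone, fell in both (-0.14 and -0.28), and 34 of the 38 were lower in untreated MALME-3M than in SK-MEL-5, beside 37.2% of all genes.

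The checks of the libraries came out as follows. IRF1 and GBP1, direct IFN-γ targets, rose in both lines, with log2 fold changes of 5.35 and 5.80 in SK-MEL-5 and 6.43 and 5.75 in MALME-3M. The 7 melanocytic markers MLANA, PMEL, TYR, SOX10, MITF, DCT and S100B had 127 to 2948 CPM in every library. Under IFN-γ DCT fell in both lines (-0.18 and -0.47), S100B fell in SK-MEL-5 (-0.34) and rose in MALME-3M (0.19), and in MALME-3M MLANA fell (-0.19) and SOX10 rose (0.21). Markers of leukocytes, fibroblasts, endothelium and epithelium (PTPRC, CD3E, CD14, COL1A1, PECAM1 and EPCAM) had 0 to 1.17 CPM. Gene counts per library ran from 15514412 to 22921184. Of 10 p53 targets, 1 rose and 1 fell in SK-MEL-5 and 1 rose and 2 fell in MALME-3M. Of all genes 5.98% rose and 7.05% fell in SK-MEL-5, and 9.51% and 8.77% in MALME-3M. The target that rose was FAS in both lines (0.60 and 0.41). ZMAT3 fell in both (-0.52 and -0.35), and MDM2 fell in MALME-3M (-0.21). Of 5 genes known to act with RPL13A in the IFN-γ-activated inhibitor of translation, DAPK1 and DAPK3 rose in MALME-3M (0.38 and 0.28) and EPRS fell (-0.20), and 0 were called in SK-MEL-5 by edgeR or DESeq2 or had an unadjusted p under 0.05.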

How the data were processed

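Total RNA libraries from 12 cultures were analysed from the files that the authors deposited for each library. Gene counts are whole, unnormalized numbers per symbol, per the file headers and summary lines. Transcript tables hold estimated counts and TPM per transcript, also per the file headers as deposited. The submitters' processing notes list, without versions, HTSeq, kallisto, STAR, SAMtools and cutadapt and the build hg38. The strand setting is not given in the sources used here, so reads of a member and an overlapping antisense gene cannot be told apart. Members may also share reads with near-identical copies.

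The tests used edgeR 4.0.16 under R 4.3.3 (filterByExpr with a minimum count of 10, TMM scaling, glmQLFit over all 4 groups, contrasts for IFN-γ in each line, their difference and the lines), with Benjamini-Hochberg adjustment over all 15810 genes and a threshold of 0.05. SE is the absolute log2 fold change over the square root of F. DESeq2 1.42.0 was an alternative, as were estimated counts summed to genes by GENCODE 29 and rounded. Transcripts tied to genes held 49.9% to 55.2% of estimated counts, and 1 assembled transcript took 46.6% to 57.7% of TPM, so TPM was used for description only. Lengths and GC content came from the most abundant transcript. Code was tested on simulated data. The chi-square between libraries of a group was 5.93 to 17.4 per gene, so none was taken as a repeat deposit. Intervals and p-values do not tell PCR duplicates apart.

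The members, lists and naming rule were chosen with earlier results of these data known. Named were the 8 largest called changes in each direction of each comparison, members of fixed role and paralog lists, the 3 highest and lowest levels, and the 3 largest called changes of other lists. RPL30, RPL35, RPS24, RPS4X, RPS13, RPS25, RPL35A, RPS26 and the members of count lists were named after their values were seen. Some genes are not reported here. Other settings were edgeR with DESeq2 or upper-quartile scaling, TMM without the members, no filter, only the groups compared, and each library left out.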

Additional observations from a re-analysis of the deposited data

Results flagged for a closer look

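For 4 members the IFN-γ change differed between the lines by the edgeR interaction term, given as MALME-3M minus SK-MEL-5 on the log2 scale. RPS14 had -0.64 (adjusted p = 0.013), RPL41 -0.58 (0.029), RPL13A -0.49 (0.042) and RPL12 -0.23 (0.023). From the transcript estimates the differences were 0.11, -0.55 and -0.14 for RPS14, RPL41 and RPL13A, none of them called, and -0.30 for RPL12, which was. Groups of 3 libraries were not searched for single outlying values.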

How the results depend on the processing

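No paired analysis was possible because the labels give no replicate numbers. The limits are the 3 wells per group, the small size of the IFN-γ changes, the uncertain counting of members with near-identical copies, and lines that differ in dose and medium. The transcript estimates rest on part of the reads and 13497 tested genes, and the cause of calls lost there was not tested. They called 1 member higher and 1 lower in SK-MEL-5, 0 higher and 14 lower in MALME-3M, and 2 lower in the difference of the lines' changes. In SK-MEL-5 18 of 21 called members kept their sign there, in MALME-3M 24 of 25, and between the untreated lines 63 of 69. The called signs that reversed there were those of RPL4 (0.10 in SK-MEL-5), RPS26 (0.05 in SK-MEL-5, 0.10 between the untreated lines), RPL17 (-0.066 in SK-MEL-5, -0.081 between the untreated lines), RPS14 (0.12 in MALME-3M, 0.11 for the difference, -0.63 between the untreated lines), RPLP1 (0.20 untreated, 0.02 treated), RPL13A (-0.12 untreated) and RPL23 (0.045 untreated). Of the members with a reversed sign, only RPS26 had transcript estimates between 0.5 and 2 times its gene counts. Called only from the transcript estimates were RPS16 in SK-MEL-5 (0.22), RPL36A (-0.25), RPL17 (-0.20) and RPL26 (-0.23) in MALME-3M, RPL23 for the difference (-0.27), 5 members between the untreated lines and 4 between the treated. DESeq2 scaling, upper-quartile scaling and no filter each gave 0 members higher in MALME-3M, and no filter 1 higher for the difference. Leaving out each library in turn gave 0 to 4 members higher and 7 to 18 lower in SK-MEL-5, 0 to 1 higher in MALME-3M, and 0 to 1 higher and 1 to 8 lower for the difference. Without the 8 members whose estimates exceed 3 times their gene counts, an alternative added after seeing the data, 1 was higher in SK-MEL-5. Member shares were 4.20%, 4.02%, 3.48% and 3.20% by transcript estimates, in the order SK-MEL-5 untreated and treated, MALME-3M untreated and treated, and 2.29% in treated MALME-3M without the loci that have no symbol. Of 3106 alternative values of named members, 2848 kept direction and side of the threshold, 75 changed sign without a call in either fit, 155 lost the call, 18 gained it and 10 reversed. The counts between the lines stayed within 1.5 times under every setting run.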
